A study of Homo sapiens with 4 samples.

Results

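The Notch pathway genes described here are 10 genes taken by name from the m6A peak list of MDA-MB-231, a human cell line established from triple negative breast cancer. They are the receptors NOTCH1, NOTCH2 and NOTCH3, the ligands JAG1 and JAG2, the target genes HES1 and HEY1, the nuclear cofactor MAML1, the inhibitor NUMB and the co-repressor SPEN. A peak was given to a gene when it carried the Ensembl ID of that gene. In this way 33 of the 20261 listed peaks, on 9 of the 10140 listed genes, were assigned to the 10 members, and only MAML1 had no peak. The series held 2 input libraries and 2 libraries immunoprecipitated (IP) with an anti-m6A antibody, all from poly(A) RNA of cells labelled shNS, with no other treatment in the titles. The IP libraries also carry a treatment label with the name YTHDC1, but the titles, which were followed, call them m6A-seq. The libraries had been combined into 1 list with 1 value per peak, so no spread between replicates exists for any value below and no test between groups was possible.

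Notch signaling passes from a ligand on one cell to a receptor on its neighbor. Binding of a JAG or DLL ligand lets ADAM proteases and then γ-secretase cut the receptor, and the freed intracellular domain enters the nucleus, where it joins the DNA-binding protein RBPJ and a Mastermind cofactor to switch on targets such as the HES and HEY repressors. In breast epithelium the pathway is known for cell fate decisions, and JAG1 and the NOTCH receptors have been studied in triple negative tumors. m6A is a methylation of adenosine inside mRNA that is known to be common near stop codons and in 3′ ends of transcripts.

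The strength of each peak comes from the deposited score for enrichment of IP over input, read here as a p-value, though it may be an FDR. It is given as −log10, with scores listed as 0 set to 323. It depends on the number of reads as well as on methylation, and the reads behind each peak are unknown, so it ranks the evidence for a peak and not the amount of m6A. The score differed between strands over the whole list. The strongest peak of a listed gene had a median −log10 score of 21.4 on the minus strand (6624 genes) and 6 on the plus strand (3516 genes). Each member was therefore read only against genes of its own strand. NOTCH1, NOTCH2, NOTCH3, JAG1, JAG2, HEY1 and NUMB are on the minus strand, and HES1, MAML1 and SPEN are on the plus strand. All 7 minus-strand members had a peak, beside 57.5% of the minus-strand coding genes of the RefSeq promoter table, in which HEY1 is not listed, and 2 of the 3 plus-strand members had one, beside 30.3% on the plus strand. The median score of the list was 5.2e-08, and a score no larger than this was reached by 6 of the 7 minus-strand members (45.3% of the minus-strand coding genes) and by 1 of the 3 plus-strand members (12.6%). The 10 genes were chosen with earlier results of the list known, and these shares are a description only.

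**Figure D1:**
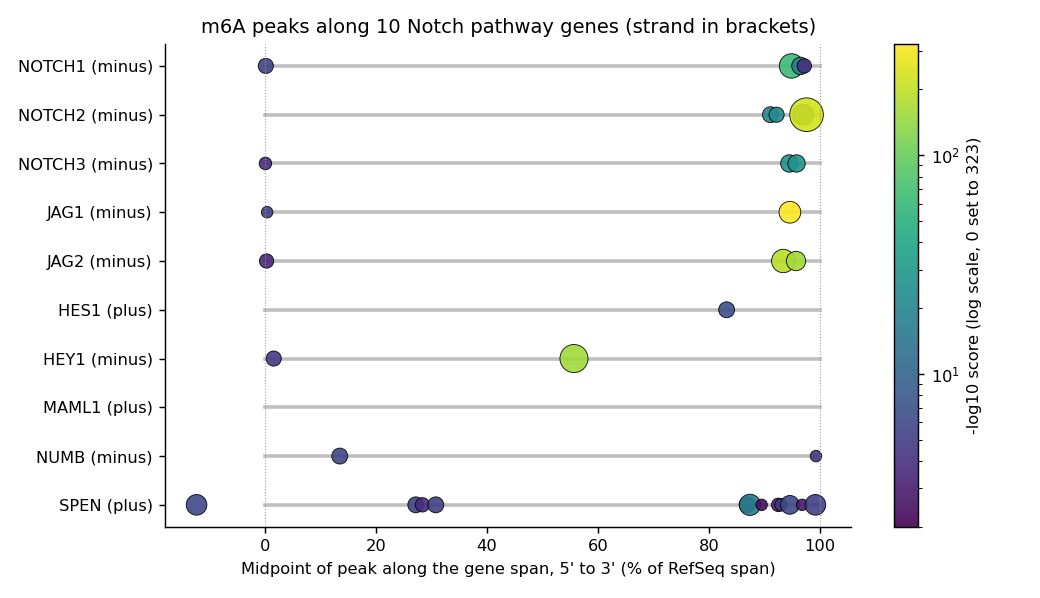
Each row is 1 gene from its 5′ end (0%) to its 3′ end (100%) on the RefSeq span, introns included, and each point is the midpoint of 1 peak, with its area growing with the spliced length and its color giving the −log10 score on a log scale. Peaks of the receptors and ligands lie at both ends of the genes, or in NOTCH2 only toward the 3′ end, and the stronger ones lie near the 3′ end. SPEN, with 12 peaks, has its first peak before the RefSeq start.

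The 3 receptors carried 11 peaks with 3967 spliced bases, and every peak lay in the first or the last 10% of the gene span. The last 10% held 9 of the 11. NOTCH1 (chromosome 9, 136494433 to 136546048, ENSG00000148400), a receptor that is best known from T cell leukemia, had 4 peaks. Its strongest peak ran over 631 bases from 136496740 to 136497370 with a score of 4e-63. Downstream of it lay peaks of 271 bases (7.9e-17) and 151 bases (8.1e-05), separated by gaps of 358 and 179 bases. These 3 peaks thus fell within 1590 genomic bases, and their scores became weaker toward the 3′ end. The NOTCH1 peak nearest the 3′ end was still 1348 bases away from it. The fourth peak, of 181 bases, lay at the other end of the gene, 48497 bases from the nearest of these, and its first base was the first base of the RefSeq span (5.5e-06).

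NOTCH2 (chromosome 1, 119911553 to 120069662, ENSG00000134250) also had 4 peaks, but it was the 1 receptor with no peak at the 5′ end. Its strongest peak was the longest of all 33, at 1289 bases from 119914640 to 119915928. Among the minus-strand members its score of 1e-230 was the second strongest after that of JAG1. A length of at least 1289 bases was reached by 1.77% of minus-strand peaks. The next peak upstream was 421 bases long (2e-15) and only 209 bases away. Peaks of 181 bases (2e-23) and 210 bases (6.3e-21) followed at 12226 and 13936 bases from the 3′ end, so that NOTCH2 had peaks farther upstream than the 3′ groups of the other receptors. All 4 NOTCH2 peaks had a score no larger than the list median, against 2 of 4 for NOTCH1 and 2 of 3 for NOTCH3. The NOTCH2NL genes are partial copies of the 5′ part of NOTCH2, and reads from such copies are hard to assign. None of NOTCH2NLA, NOTCH2NLB, NOTCH2NLC and NOTCH2NLR had a peak.

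NOTCH3 (chromosome 19, 15159038 to 15200995, ENSG00000074181), a receptor known from vascular smooth muscle, had 3 peaks. A pair of nearly equal peaks lay 269 bases apart near the 3′ end, with 271 bases (15161225 to 15161495, score 1.6e-27) and 270 bases (15160686 to 15160955, score 2.5e-27). As in NOTCH1, the remaining peak began at the first base of the RefSeq span, and it was short and weak with 91 bases and a score of 0.00019. The strongest peak of each receptor lay between 2187 and 3087 bases from the 3′ end, near the median of 3040 bases (quartiles 954 and 12154) over 5306 minus-strand coding genes. A strongest peak at least as strong was found in 9.15% of minus-strand genes for NOTCH2, 29.8% for NOTCH1 and 45.5% for NOTCH3.

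The ligands had 5 peaks with 1621 spliced bases, and their arrangement was like that of NOTCH1 and NOTCH3. JAG1 (chromosome 20, 10637684 to 10673999, ENSG00000101384), the ligand mutated in Alagille syndrome, had 2 peaks. The one near the 3′ end was 481 bases long (10639393 to 10639873) and was listed at a score of 0, as was a peak in 5.83% of minus-strand genes. This peak was the strongest of the 20 minus-strand peaks of the members and lay 1709 bases from the 3′ end. The other JAG1 peak had 61 bases, began 120 bases inside the gene and had a score of 6e-06. JAG2 (chromosome 14, 105140995 to 105168776, ENSG00000184916) had 3 peaks. Both of its 3′ peaks were strong, with 569 bases (105142536 to 105143104, score 1e-189) and 360 bases (105141998 to 105142357, score 1e-161), and only 178 bases lay between them. The remaining JAG2 peak of 150 bases began 12 bases inside the gene and had the weakest score of any minus-strand peak of the members (0.00034). Both ligands thus exceeded NOTCH1 and NOTCH3 in the score of the strongest peak while carrying no more peaks than NOTCH3. Whether these scores differ beyond replicate error cannot be said from 1 value per peak.

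The target genes differed from each other. HEY1 (chromosome 8, 79764010 to 79767767, ENSG00000164683), a repressor of the HES family and a direct Notch target, had a long peak (79765025 to 79766322, score 1e-157) whose blocks of 747 and 120 bases gave 867 spliced bases. A length of at least 867 bases was reached by 5.78% of minus-strand peaks, and a strongest peak at least as strong by 14.2% of minus-strand genes. It lay 1015 bases from the 3′ end, which is the middle of this short gene (55.7% of the span). The other HEY1 peak was 180 bases long with a score of 1.5e-05 and began 30 bases upstream of the RefSeq start. HES1 (chromosome 3, 194136148 to 194138732, ENSG00000114315), the most studied Notch target, had a single peak of 210 bases from 194138195 to 194138404 with a score of 1.5e-07. It ended 328 bases from the 3′ end, closer than any peak of the other members. HES1 is on the plus strand, where 45.1% of genes had a strongest peak at least as strong. Its −log10 score of 6.82 and the 157 of HEY1 stand on strands with different score ranges and cannot be compared directly.

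**Figure D2:**
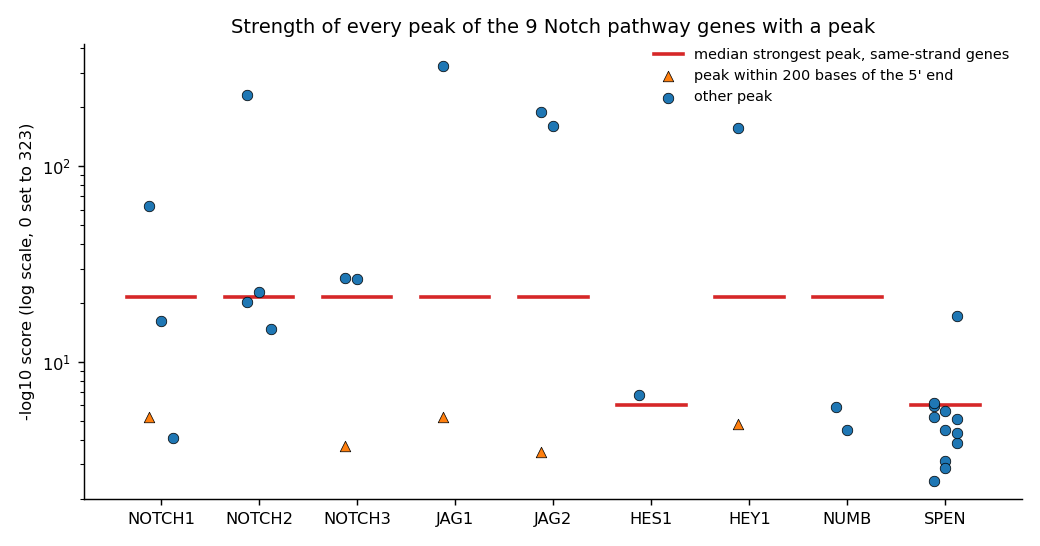
Each point is the −log10 score (log axis, 0 set to 323) of 1 peak, with triangles for peaks within 200 bases of the 5′ end of the gene, and the red line is the median strongest peak of listed genes on the same strand (21.4 for minus, 6 for plus). All 5 triangles lie under the line, and each gene with a peak other than NUMB has at least 1 peak above it.

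SPEN (chromosome 1, 15847707 to 15940456, ENSG00000065526) encodes a very large protein that recruits co-repressors to RBPJ when Notch is silent and is also known as the partner of XIST in X inactivation. With 12 peaks it had more than any other plus-strand gene in the list. The next plus-strand gene, MTRFR, had 9 peaks, and the plus-strand median was 1. Its 2740 peak bases were also the most on that strand, where the median was 240. Of the 12 SPEN peaks, 6 had a score at or under the plus-strand median of 1.4e-05. The strongest was a peak of 451 bases (15928532 to 15928982) with a score of 6.3e-18. Strongest peaks at least as strong were present in 20.9% of plus-strand genes. None of the other 11 had a score smaller than 6.6e-07, and the weakest was 0.0034 over 61 bases.

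The SPEN peaks fell into 3 groups when split at gaps of over 10000 bases. The first group was a single peak of 421 bases (15836095 to 15836515, score 1.1e-06) that lay 11612 bases upstream of the RefSeq start of SPEN. It shared 405 bases, 96.2% of its length, with a minus-strand peak of SPEN-AS1, an antisense RNA (15835278 to 15836499, score 1e-77). The list alone does not say to which of these genes the signal at that place belongs. Such an overlap with an opposite-strand peak was found for 17.8% of plus-strand peaks, and for 7.07% of minus-strand peaks, and no other peak of the 10 genes had one. Without this peak SPEN had 11 peaks, and no other plus-strand gene had as many. It then had 2319 peak bases, and 3 other plus-strand genes had at least that. The second group held 3 peaks within 3551 bases, about 27 to 31% along the gene (scores 2.6e-06, 0.00014 and 5.5e-06). The third group held 8 peaks and 1747 spliced bases within 11714 bases up to 510 bases from the 3′ end. It contained the strongest peak, which was the second from its upstream side.

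NUMB (chromosome 14, 73275216 to 73458546, ENSG00000133961), an endocytic adaptor that limits Notch activity, had 2 weak peaks. The stronger had 210 spliced bases in blocks of 105 and 105 bases that lay 47557 bases apart (73409967 to 73410071 and 73457629 to 73457733), with a score of 1.2e-06. Its 5′ edge was 813 bases inside the RefSeq span. The other was 61 bases long, lay 1327 bases from the 3′ end and had a score of 3.3e-05. NUMB was the only minus-strand member with no peak at or under the list median, and 75.7% of minus-strand genes had a strongest peak at least as strong. MAML1 (chromosome 5, 179732822 to 179777283, ENSG00000161021), the Mastermind cofactor of the receptor intracellular domain, had no peak. MAML1 is on the plus strand, where only 30.3% of the coding genes of the RefSeq promoter table had a peak. The list gives no expression values, and an unmethylated transcript cannot be told apart from one with too few reads.

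By number of peaks, the minus-strand members stood at or above the minus-strand median of 2. NOTCH1 and NOTCH2 had 4 peaks, and 15.2% of listed minus-strand genes had at least as many. NOTCH3 and JAG2 had 3 (31.2% with at least as many), and JAG1, HEY1 and NUMB had 2 (58.1%). On the plus strand HES1 had 1 peak, which is the lowest number a listed gene can have and also the plus-strand median. SPEN had the highest number on that strand. By peak bases NOTCH2 ranked highest of the minus-strand members, as its 2101 bases were reached by 5.00% of minus-strand genes, against 17.2% for the 1234 bases of NOTCH1 and 42.2% for the 632 bases of NOTCH3.

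**Figure D3:**
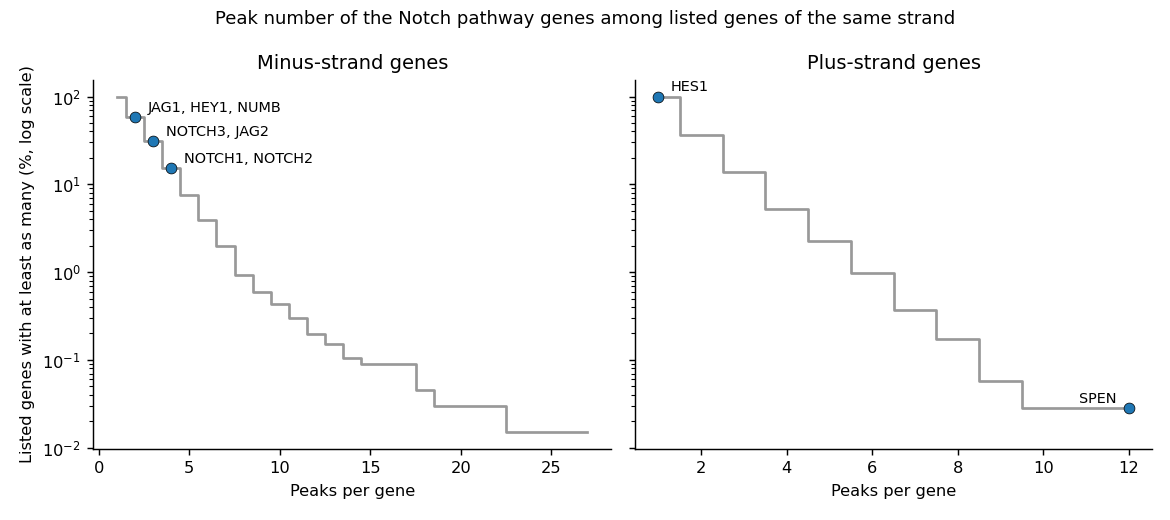
The grey steps give the share of listed genes (log axis) with at least the number of peaks on the x axis, for minus-strand (left) and plus-strand genes (right), and blue points mark the Notch pathway genes. NOTCH1 and NOTCH2, with 4 peaks, sit at 15.2%, whereas SPEN, with 12, is the end of the plus-strand curve.

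By position, 18 of the 32 peaks whose midpoint fell inside the span were in the last 10% of the gene (56.2%, 95% Wilson interval 39.3 to 71.8%, which treats peaks as independent and covers counting error only). On the minus strand these were 13 of 20 peaks (65.0%, 43.3 to 81.9%), beside 36.9% of 12057 peaks on minus-strand coding genes. On the plus strand they were 5 of 12 (41.7%, 19.3 to 68.0%), all of them in SPEN, beside 35.3% of 4580 peaks. The receptors and ligands had all of their 16 peaks in the first or last 10%, where 51.6% of minus-strand peaks lay. Peaks of 1 gene are not independent, the span includes introns, and no test was made of these shares. The strongest peak lay within 5000 bases of the 3′ end in 6 of the 7 minus-strand members, NUMB being the exception, beside 59.6% of minus-strand coding genes. On the plus strand this held for HES1 and not for SPEN, beside 55.0%.

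A peak at the 5′ end, with its 5′ edge within 200 bases of the RefSeq start, was listed for NOTCH1, NOTCH3, JAG1, JAG2 and HEY1. These were 5 of the 7 minus-strand members, beside 23.7% of 5306 listed minus-strand coding genes. HES1 and SPEN had none, beside 16.6% on the plus strand. All 5 peaks were weak. Their scores ran from 5.5e-06 in NOTCH1 to 0.00034 in JAG2, whereas the median of 1272 such peaks on the minus strand was 6.2e-09, and from 64.9% to 82.5% of those peaks were at least as strong. In each of the 5 genes the peak at the 5′ end was weaker than the strongest other peak. The ratio of the −log10 scores was smallest in NOTCH3, at 26.8 to 3.72, and largest in JAG1, at 323 to 5.22, where the first value is a set limit. The same order was found in 79.9% of the 972 minus-strand coding genes that had both kinds of peak, so it was common in the list.

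**Figure D4:**
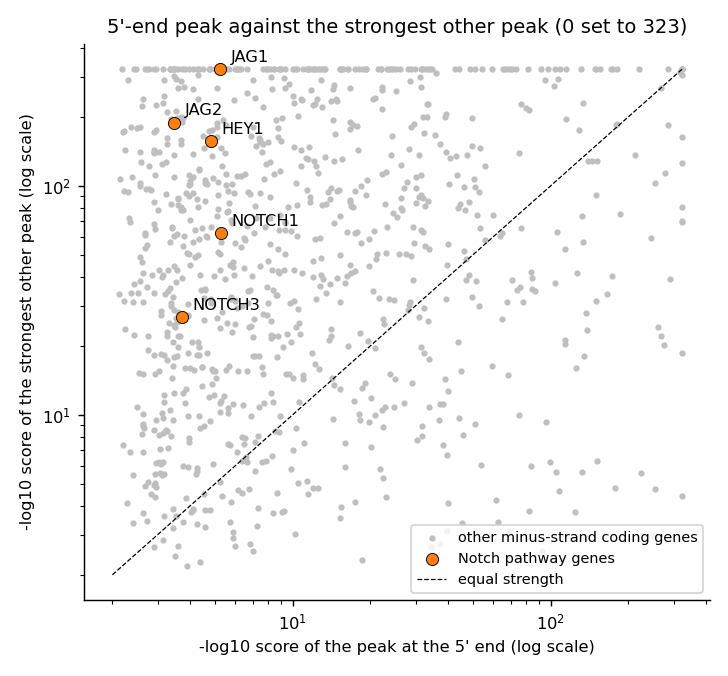
Each point is 1 minus-strand coding gene with a peak within 200 bases of its 5′ end and at least 1 other peak (972 genes), with the −log10 score of the former on the x axis and of the strongest other peak on the y axis, both on log scales. The 5 Notch pathway genes (orange) lie above the dashed line of equal strength, with x values from 3.47 to 5.26.

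The sequence at these starts is shown because the NOTCH1 and NOTCH3 peaks, as listed, cover it from the first transcribed base. Most 1-block peaks of the members had a length at, or 1 base over, a multiple of 30 bases. Edges, lengths and gaps are given as listed, and how finely they place the signal was not tested. The JAG2 peak begins 12 bases inside the gene, and the JAG1 peak begins 120 bases inside, beyond the bases printed and searched here. The sequences are from RefSeq (GRCh38.p14, minus strand, written 5′ to 3′ in the direction of transcription), and capitals mark RRACH, the usual context of m6A, in which R is A or G and H is A, C or T. For NOTCH2, which had no such peak, bases 21 to 50 are given because they hold its only match in the first 50.
NOTCH1 (chr9:136546019-136546048, bases 1 to 30): actagtgcctcggccgcgggagggagcgca
NOTCH3 (chr19:15200966-15200995, bases 1 to 30): cttcggcgaagttggcggcgcggaggctgg
JAG1 (chr20:10673970-10673999, bases 1 to 30): agacgggctctccgggtccttctccgagag
JAG2 (chr14:105168747-105168776, bases 1 to 30): agtctcgttccGAACTtgttggctgcggtg
NOTCH2 (chr1:120069613-120069642, bases 21 to 50): cgagaaagtttcagccAAACTtcgggcggc

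In the first 50 transcribed bases, RRACH was absent from NOTCH1 and NOTCH3 and occurred once in JAG2. The JAG2 match starts at base 12, the last base before the JAG2 peak. RRACH was also absent from JAG1 and occurred once in NOTCH2, at base 37, where no peak covers these bases. Of 27305 RefSeq windows of this length, 41.0% held RRACH on the transcribed strand and 41.1% on the other strand. Among 380 windows that lay wholly under a peak beginning at the 5′ end, 38.9% held it. The NOTCH1 and NOTCH3 windows were rich in G and C (82.0% and 80.0%), above the upper quartile of 70.0% over all windows. The NOTCH1 peak reaches 181 bases and the NOTCH3 peak 91 bases into the gene, and the bases beyond the first 50 were not analysed here. A match is a word in the sequence and not a measured site, and its absence says nothing about these peaks.

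A further 56 genes of the pathway were listed by role for context, and 37 of them had 99 peaks. Among those in the RefSeq promoter table, 23 of 26 minus-strand genes had a peak, beside 57.5% in the background, and 11 of 21 plus-strand genes, beside 30.3%. Of the nuclear complex genes, 4 of 4 on the minus strand and 2 of 3 on the plus strand had a peak. MAML3, a relative of MAML1, had 9 peaks (strongest score 6.3e-34), MAML2 had 4 (7.9e-50), and the acetyltransferase genes CREBBP and EP300 had 5 each (1e-220 and 6.3e-17). MAML3, MAML2 and CREBBP are on the minus strand and MAML1 and EP300 on the plus strand, so their counts and scores are not set on 1 scale. At least 5 peaks were listed for 7.55% of listed minus-strand genes and 2.25% of listed plus-strand genes.

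Of the genes listed here under co-repressors, 5 of 5 on the minus strand and 2 of 3 on the plus strand had a peak. The plus-strand gene without one was RBPJL, whose place under this role was not checked. KDM5A, a histone demethylase gene, had 6 (1e-146), CTBP1 had 5, and NCOR1 (1e-181), TLE1 (4e-86) and TLE3 (1e-147) had 4 each. The strongest CTBP1 peak, with a −log10 score of 211, had 272 bases in common with one of CTBP1-AS on the opposite strand (1e-172). A KDM5A peak shared 18 bases with one of CCDC77, and 2 MAML2 peaks shared 74 and 89 bases with weak plus-strand peaks. Among trafficking and turnover genes 8 of 13 had a peak. Of those in the promoter table, 4 of 5 on the minus strand and 4 of 6 on the plus strand had one, beside 57.5% and 30.3% in the background. On the minus strand, FBXW7 (1e-182), the ubiquitin ligase subunit that marks the NOTCH intracellular domain for decay, and the kinase gene AAK1 (1e-39) had 4 each. Among further targets 8 of 10 had one. Of those in the promoter table, 6 of 7 on the minus strand and 0 of 1 on the plus strand had one, beside the same shares. The other targets with a peak are on the plus strand and not in that table. NRARP, a feedback inhibitor on the minus strand, had 4 (1e-185).

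Of the genes for cleavage and glycosylation 8 of 14 had a peak, none with more than 3. Of those in the promoter table, 4 of 4 on the minus strand and 3 of 7 on the plus strand had one. No peak was listed for the receptor NOTCH4 on the minus strand (57.5% with a peak in the background) or the ligand DLL4 on the plus strand (30.3%). The ligands DLL1 and DLL3, for which no strand was available, had none either. JAG1 and JAG2, with 5 peaks, are on the minus strand, so the ligands are not set on 1 scale. The other genes without a peak were NCSTN, APH1B, PSENEN, POGLUT1, LFNG, MFNG, KAT2B, RBPJL, NEDD4, NEURL1, DTX1, DTX3, DTX4, HES5 and HEY2. A peak at the 5′ end was listed for 9 of the 23 minus-strand genes with a peak (39.1%, beside 23.7% of listed coding genes on that strand) and for 2 of the 14 on the plus strand (14.3%, beside 16.6%).

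**Figure D5:**
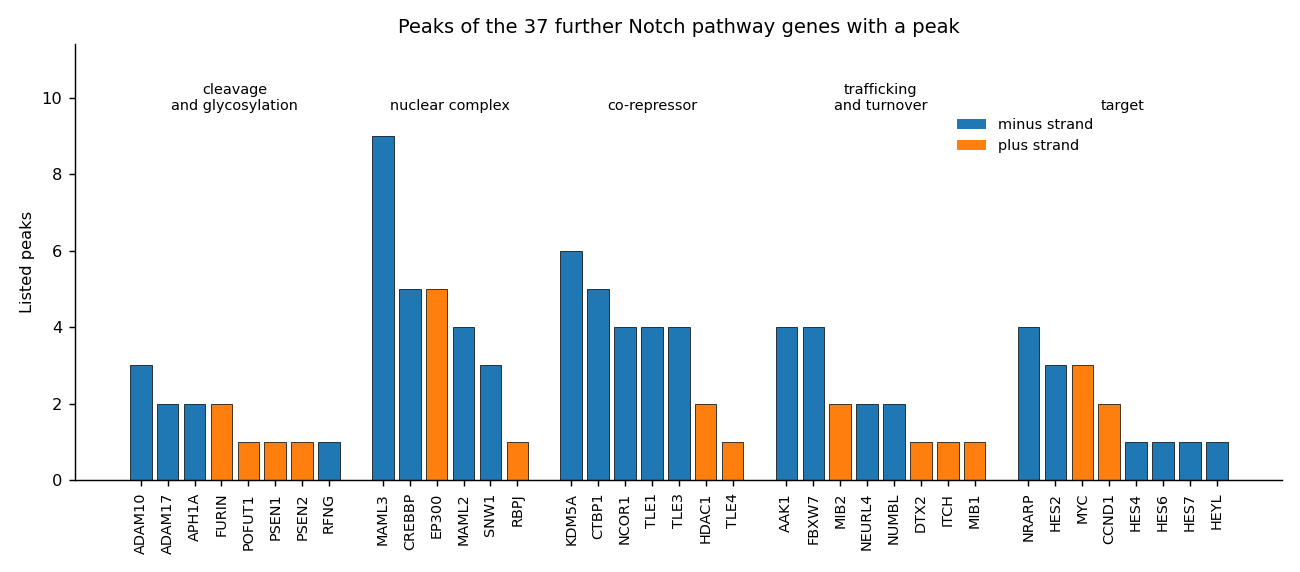
Bars give the number of listed peaks of the 37 further pathway genes with a peak, grouped by role, in blue for the minus and orange for the plus strand. MAML3 (9) and KDM5A (6) have the most, and no gene for cleavage and glycosylation has more than 3.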

How the data were processed

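m6A-seq was done on 2 input and 2 IP libraries. Per the methods and labels, the authors aligned reads with STAR to GENCODE annotation of hg38, called peaks with exomePeak and kept those past a fold and an FDR threshold. The score column was read as the deposited p-value. Depth per library is unknown.

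Ensembl IDs were matched to symbols without version (10103 of 10140). Spans came from RefSeq (GRCh38.p14), and strand from the list or, for genes without a peak, from the RefSeq promoter table, which lists part of the genes. Coordinates are written from 1. Opposite-strand overlap required 1 shared base. Members and lists were chosen with earlier results of these data known. All 10 members are named, and of further pathway genes those with at least 4 peaks, with a peak listed at 0 or without a peak. A further pathway gene is not reported here and is left out of the counts. MTRFR, CTBP1-AS, CCDC77 and VIM-AS1 were named after their values were seen. The 200-base window was set after seeing the data. Alternatives were stricter scores, merging, parts of the list and other reference sets. Functions were tested on simulated data. Python 3.11.15, numpy 2.4.6, scipy 1.17.1 and matplotlib 3.10.9 were used. Exon maps and protein sequences were not used here.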

Additional observations from a re-analysis of the deposited data

How the results depend on the processing

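The number of peaks of the 10 genes fell from 33 to 13 for scores at or under the list median and to 10 for a −log10 score of at least 20. Under these settings the receptors kept 8 and 6 of 11 peaks, the ligands 3 and 3 of 5, and the targets 1 and 1 of 3. Both cutoffs were the same for the 2 strands, although scores on the plus strand, which holds HES1 and SPEN, were weaker over the list. With the median of the same strand as cutoff, 8 of the 10 genes kept a peak, against 7 with the list median. The share in the last 10% of the span was 90.0% for a −log10 score of at least 20. These 10 peaks were all on the minus strand. The share for all minus-strand peaks at this cutoff was not computed, so 90.0% has no reference here. These settings remove weak peaks by construction. Merging overlapping peaks and using the first part of the list left 33 peaks, and leaving out opposite-strand overlaps, chosen after seeing the data, left 32. With 100 or 1000 bases in place of 200, chosen after seeing the data, 4 or 6 genes had a peak at the 5′ end, beside 20.2% or 34.2% of minus-strand coding genes. Counting annotated coding genes without a peak lowered the share of genes with at least as many peaks by over 1.5 times for all 9 members, because more genes enter the reference. Peaks per protein length and positions along the spliced transcript or by UTR were not run, as no protein or exon table was used. No paired analysis was possible because all 4 libraries had been combined before peaks were listed, and for the same reason no replicate could be left out. Since depth is unknown, the absence of a peak in MAML1 and other genes has no stated limit of detection.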

Other observations

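Markers of MDA-MB-231 cells were also looked up. Of 6 genes known to be expressed in this mesenchymal line, VIM had 1 peak (5e-27) and CAV1 had 2 (7.9e-14), and CD44, AXL, LGALS1 and KRT18 had none. The VIM peak lay 8104 bases from the 3′ end and shared 132 bases with a peak of VIM-AS1 on the opposite strand (7.2e-08), so the list alone does not say to which gene the signal belongs. Of the luminal and epithelial genes ESR1, PGR, GATA3, CDH1 and EPCAM, 0 of 5 had a peak. VIM, CAV1, CD44, AXL, ESR1 and GATA3 are on the plus strand, where 30.3% of coding genes had a peak. PGR is on the minus strand (57.5%), and no strand was available for the other markers. The counts were not tested against these shares or against each other. A peak is not a measure of expression, so the marker counts do not check the identity of the cells.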
